A study of Sus scrofa with 60 samples.

Results

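Transport between the nucleus and the cytoplasm was followed in pig liver from the fetus to the slaughter-age animal, through the transcripts of the nuclear pore and of the carriers that pass it. The members are the probe-sets whose single gene symbol in the platform annotation is RAN, CSE1L, AAAS, TPR, SEH1L, RANGAP1 or RCC1, or begins with RANBP, KPNA, KPNB, XPO, TNPO, NXF or NXT, or with NUP or IPO followed by a digit. This gave 70 probe-sets of 34 genes, out of 23999 probe-sets and 6765 genes with a single symbol. No probe-set carried SEH1L or RCC1 as its single symbol, nor KPNA4, KPNA6, RANBP2 or TNPO1, and these were not analysed here.

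All animals were German Landrace offspring of gilts on the gestational adequate protein (AP) diet. Hepatic mRNA was measured on Affymetrix Porcine arrays, 1 array per animal, in 15 fetuses at 94 days post conceptionem (dpc) and in 15, 14 and 16 born animals at 1, 28 and 188 days post natum (dpn). Per the study's methods the fetuses came from an experiment of their own and the pigs of 28 and 188 dpn were fasted, so that birth and experiment, or age and fasting, cannot be told apart in period I (94 dpc to 1 dpn) and period II (1 to 28 dpn) respectively. Over the whole span (94 dpc to 188 dpn) age, experiment and fasting cannot be told apart. The hepatocyte markers ALB, TTR, APOA1, SERPINA1, TF, FGB, HNF4A and CPS1 were above the background of the Tag control probe-sets at all 4 stages.

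The nuclear pore is a ring of proteins called nucleoporins, built from a scaffold of Y-shaped complexes, an inner ring, membrane proteins, a channel lined with phenylalanine-glycine repeats, filaments on the cytoplasmic side and a basket on the nuclear side. Importins carry cargo in and exportins carry it out, and the small GTPase RAN gives the direction, since its GTP form is kept high in the nucleus and its GDP form in the cytoplasm. Cells that divide or enlarge their nuclei assemble new pores, and in fetal liver the dividing cells include both hepatic and blood-forming cells. RAN, importin alpha and several nucleoporins also act at the mitotic spindle.

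Levels are given as log2(intensity + 16), changes as later minus earlier stage on that scale with the standard error (SE) of limma after the ± sign, and folds are folds on that scale, which understates changes of weak signals. Adjusted p-values come from limma with Benjamini-Hochberg adjustment over all probe-sets tested. A change counted as called where this p lay below 0.05. Because each probe-set binds its target with its own strength, levels were compared between animals and not between genes, and the probe-set of a gene whose mean over all arrays was highest is called its brightest. According to the methods, siblings were chosen in pairs at each stage, which the labels do not identify, so n counts animals that are not all independent and p-values, permutation tests included, may be too small. In whole liver, fewer cells of a type and less mRNA per cell cannot be told apart.

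A probe-set was tested where it lay above the array's median in at least 50% of the animals of a compared stage. This held at some stage for 54 of the 70 members, which represent 31 genes, whereas 16 members never passed. Both probe-sets of XPO1, both of KPNA5 and the one of KPNA7 were among the latter. XPO1, the exportin for proteins with a leucine-rich export signal, had a median of 6.39 at 94 dpc (lowest 5.79, highest 7.00) and 4.84 at 188 dpn (lowest 4.11, highest 6.01) for its brighter probe-set, while the highest mean of a Tag control was 5.86 and 5.84 at these stages. No change of XPO1 was tested in the main fit.

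Most members had a lower signal at the oldest stage than in the fetuses. Between 94 dpc and 188 dpn, 41 of 52 tested probe-sets fell (78.8%) and 5 rose (9.62%), against 53.4% falling and 27.9% rising among all 13361 probe-sets tested. The median change was -0.94 for the members and -0.34 for all probe-sets. In period I, 24 of 52 members fell (46.2%, against 41.1% of all) and 8 rose (15.4%, against 23.9%), so that the share of falls lay near the background. In period II, 31 of 52 fell (59.6%, against 39%) and 7 rose (13.5%, against 28.5%), and in period III (28 to 188 dpn) 23 of 47 fell (48.9%, against 24.1%) and 1 rose (2.13%, against 15.5%).

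The ranges of the compared stages were separate in 24 of 52 members across the whole span, or 46.2% against 32.1% of all probe-sets tested. Without overlap were also 7 of 52 in period I (13.5%, against 9.99%), 11 of 52 in period II (21.2%, against 11.4%) and 1 of 47 in period III (2.13%, against 1.24%). Any difference among the 4 stages was called for 53 of the 54 members, the exception being a probe-set of IPO11, against 93.2% of all probe-sets tested. The highest stage mean was at 94 dpc for 34 of 54 members (63%, against 44.6% of all), and the lowest was at 188 dpn for 33 (61.1%, against 37.3%).

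**Figure D1:**
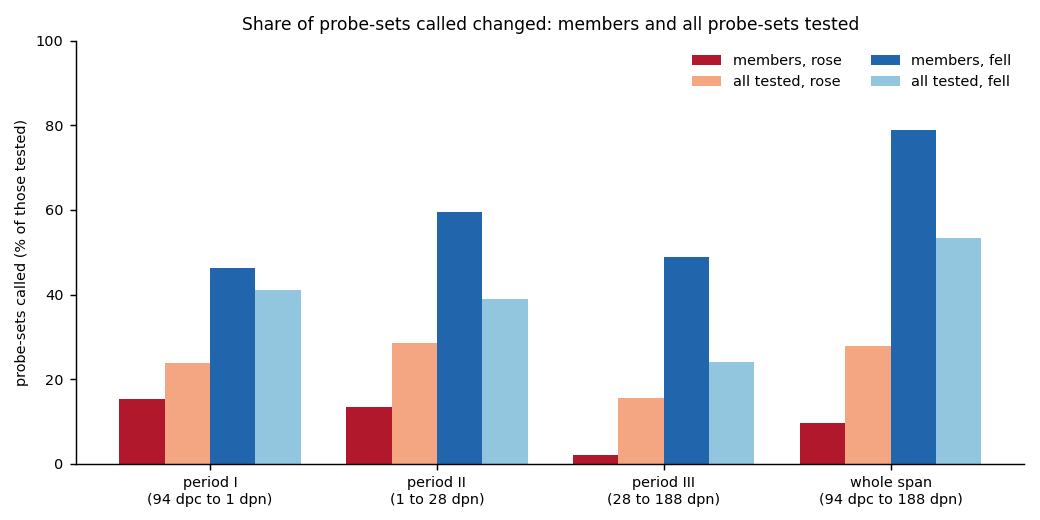
Share of probe-sets called at an adjusted p below 0.05 (y axis, % of those tested), by direction, in the 3 periods and over the whole span (x axis), with dark bars for the members and pale bars for all probe-sets tested. The member bars for falls stand at 46.2%, 59.6%, 48.9% and 78.8%, beside 41.1%, 39%, 24.1% and 53.4% for all probe-sets.

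These counts depend in part on how arrays are scaled, because the median intensity of the arrays fell from 169.8 at 94 dpc to 111.2 at 188 dpn while the trimmed mean was fixed. With each array centred on its median, the median change of all probe-sets over the whole span moved from -0.34 to 0.21, the members split into 13 rises and 30 falls, and the share of rises among all calls went from 34.3% to 59.6%. With quantile normalization the members split into 9 rises and 34 falls, and rises made up 49% of all calls. Relative to the median of all probe-sets, the members' median lay at -0.60 as deposited and at -0.57 after quantile normalization. Centring leaves this difference unchanged by construction, since it shifts all probe-sets of an array alike. In the same way the relative medians were -0.10, -0.24 and -0.21 in periods I, II and III as deposited, and -0.11, -0.32 and -0.20 after quantile normalization. The split of member calls into rises and falls in periods I, II and III was 12 and 19, 11 and 28, and 1 and 19 after quantile normalization, and 14 and 18, 17 and 22, and 2 and 21 after centring, where rises made up 52.7%, 65.9% and 51.1% of all calls in place of 36.8%, 42.2% and 39.2%.

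Markers of other cells moved along the same stages. Of a list of 16 dividing-cell genes on the array, 4 of 15 tested fell and 1 rose in period I, 12 of 15 fell in period II and 14 of 14 fell in period III. Their summed intensity ranged from 6988 to 17190 at 94 dpc, from 3051 to 18580 at 1 dpn, from 1892 to 9670 at 28 dpn and from 1245 to 1757 at 188 dpn, where CCNB2, TOP2A, CCNA2 and MCM4 were at the Tag background. All 7 erythroid genes measured fell in period I, from a sum of 10300 to 45470 in the fetuses to 1425 to 5166 in the newborns, and TFRC was at background from 28 dpn. The 5 neutrophil genes fell in periods I and II, with sums of 11140 to 33410 at 94 dpc and 502.4 to 1906 at 28 dpn. The actin control, read at its 3′ end relative to its 5′ end, had a log2 ratio of 2.29 ± 0.34 (SD, n = 15), 1.76 ± 0.31 (n = 15), 3.54 ± 0.46 (n = 14) and 4.01 ± 0.45 (n = 16) at the 4 stages. The other actin control had ratios of -0.84, -1.29, 0.39 and 0.13, so that both actin ratios went down in period I and up in period II. A GAPDH control had 1.47, 0.96, 1.02 and 0.89 and moved little in period II. The other GAPDH control had 0.99, 0.38, 0.77 and 0.68, and so went down in period I and up in period II, as the actin ratios did. Of the controls for 18S ribosomal RNA, one had mean levels of 9.04, 9.03, 13.86 and 13.36 and another 12.27, 12.23, 10.27 and 11.61. These parted in period II, and their relation to the member changes was not tested. With the first actin ratio as a covariate 2 members rose (3.85%, against 10.5% of all) and 13 fell (25%, against 13.2%) in period II, and 2 rose (3.85%, against 18.5%) and 35 fell (67.3%, against 37.4%) over the span. By the brightest probe-sets the period II falls of IPO5, IPO11, KPNA3, KPNB1, NUP93, NUP133, RANBP1, RANBP3, RANBP6, TPR and XPOT, the period II rises of KPNA1, NUP210, RANBP10 and TNPO2, the period III falls of IPO11, NUP93, NUP133 and NUP155, the rise of RAN in period III and the span changes of AAAS, IPO11, NUP54, NUP210, RANBP6, RANGAP1 and XPO5 were then not called, and in period I neither were the fall of TPR and the rise of NXT1. The cause of these losses was not tested, while the part of the cell types in the changes was not tested.

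The Ran cycle itself was read by 9 probe-sets for RAN, and they did not follow a common course. Over the span 4 of them fell, 2 rose and 3 were not called. Among the rises, Ssc.15594.3.S1_at passed the filter only through 188 dpn (81.2% of animals above the array median, against 0% at 94 dpc). Its rise over the span was not called with the actin ratio as covariate (0.54, adjusted p = 0.22). Which transcript each of them binds was not analysed here.

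The brightest RAN probe-set, Ssc.13764.1.S1_at, ranged from 14.72 to 15.31 in the fetuses (median 14.96), from 13.96 to 14.49 in the newborns (14.16), from 13.76 to 14.35 at 28 dpn (14.11) and from 14.07 to 14.98 at 188 dpn (14.39). All newborns lay below all fetuses. It fell by 0.80 (SE 0.07) in period I (1.74-fold, adjusted p = 1.6e-11), changed by -0.07 ± 0.07 in period II (adjusted p = 0.40) and rose by 0.30 ± 0.08 in period III (adjusted p = 0.0036), which was the only rise of a member in period III. That rise was not called after quantile normalization (0.12, adjusted p = 0.14) or with actin's 3′/5′ ratio as covariate (0.18, adjusted p = 0.085). Over the span its fall of 0.57 (SE 0.08) came to -0.02 with centred arrays (adjusted p = 0.82).

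A second bright probe-set, Ssc.13909.1.A1_at, fell a little in each period, by 0.26, 0.26 and 0.31, and its fetuses (14.17 to 14.61) lay above all animals of 188 dpn (13.15 to 13.85). After centring, its change was -0.09 in period I and 0.06 in period II, neither called. The steepest loss was that of Ssc.8371.1.A1_at, which had medians of 9.84, 8.93, 7.96 and 7.58 at the 4 stages. It fell in every period and by 2.51 (SE 0.11) over the span, or 5.7-fold (adjusted p = 2.8e-20), and its fetuses (9.69 to 10.56) did not overlap the pigs of 188 dpn (6.64 to 7.97).

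An opposite course was read by Ssc.15594.2.S1_at. It ranged from 7.79 to 8.83 at 94 dpc (median 8.45), 7.94 to 9.25 at 1 dpn (8.69), 9.32 to 10.68 at 28 dpn (9.97) and then 9.25 to 9.95 at 188 dpn (9.55). Every animal of 28 dpn lay above every newborn, and the rise of 1.27 (SE 0.14) in period II was 2.42-fold (adjusted p = 2.4e-09). Over the span it rose 2.15-fold (adjusted p = 2.3e-13), and no other member rose over the span without overlap. Ssc.15594.3.S1_at rose by 0.52 (SE 0.13) in period II, which was not called with the actin ratio as covariate (0.59, adjusted p = 0.21). This probe-set passed the filter there only through 28 dpn, with 100% of animals above the array median against 13.3% of newborns. Its rise is therefore no separate support. Ssc.15594.1.S1_at fell by 0.58 (SE 0.14) in period III.

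Around birth Ssc.28505.1.A1_a_at and Ssc.28505.2.S1_at parted. The first rose by 0.65 (SE 0.08, adjusted p = 3.2e-08), from 9.30 to 10.11 in the fetuses to 10.11 to 10.89 in the newborns. The second fell by 0.87 (SE 0.08, adjusted p = 4.0e-11), from 10.01 to 10.42 to a range of 8.91 to 9.64. Neither overlapped between the stages. The ninth probe-set, Ssc.24239.1.S1_at, fell by 0.52 (SE 0.11) in period I and rose by 0.41 (SE 0.12) in period II, with a net change of 0.10 ± 0.11 (adjusted p = 0.40).

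These differences were tested within arrays, where scaling cancels, by a two-sided permutation test of the difference between 2 RAN probe-sets with 100000 resamples. Of 108 pairs over the 3 periods, 69 differed in their change after adjustment over all of them, 27 of 36 in period I, 28 of 36 in period II and 14 of 36 in period III. Among the 100 pairs with both probe-sets past the filter 63 differed, 21 of 28 in period I, where Ssc.15594.3.S1_at did not pass. In 52 of the 69 the 2 changes had opposite signs, whatever their size. This count includes changes that were not called or not tested. Examples are -0.07 for Ssc.13764.1.S1_at in period II and 0.18 for Ssc.15594.3.S1_at in period I. The widest gap was 2.42 (SE 0.23) between Ssc.15594.2.S1_at and Ssc.8371.1.A1_at in period II, and the gap of 1.52 (SE 0.10) between the Ssc.28505 pair in period I was of the same kind, both at a permutation p of 1e-05, the smallest these resamples can give (adjusted p = 3.6e-05).

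Within a stage, the RAN probe-sets were compared across animals. Of 144 correlations (36 pairs at each of 4 stages), 1 passed adjustment, between Ssc.15594.2.S1_at and Ssc.15594.1.S1_at at 28 dpn, with Pearson's r = 0.836 (permutation p = 0.00026, adjusted p = 0.037, n = 14 animals) and Spearman's rho = 0.873 (permutation p = 0.00018, adjusted p = 0.026). It was 0.681 without the 2 animals farthest from the median. The median r over the pairs was 0.0018, 0.11, 0.03 and -0.14 at 94 dpc, 1, 28 and 188 dpn.

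**Figure D2:**
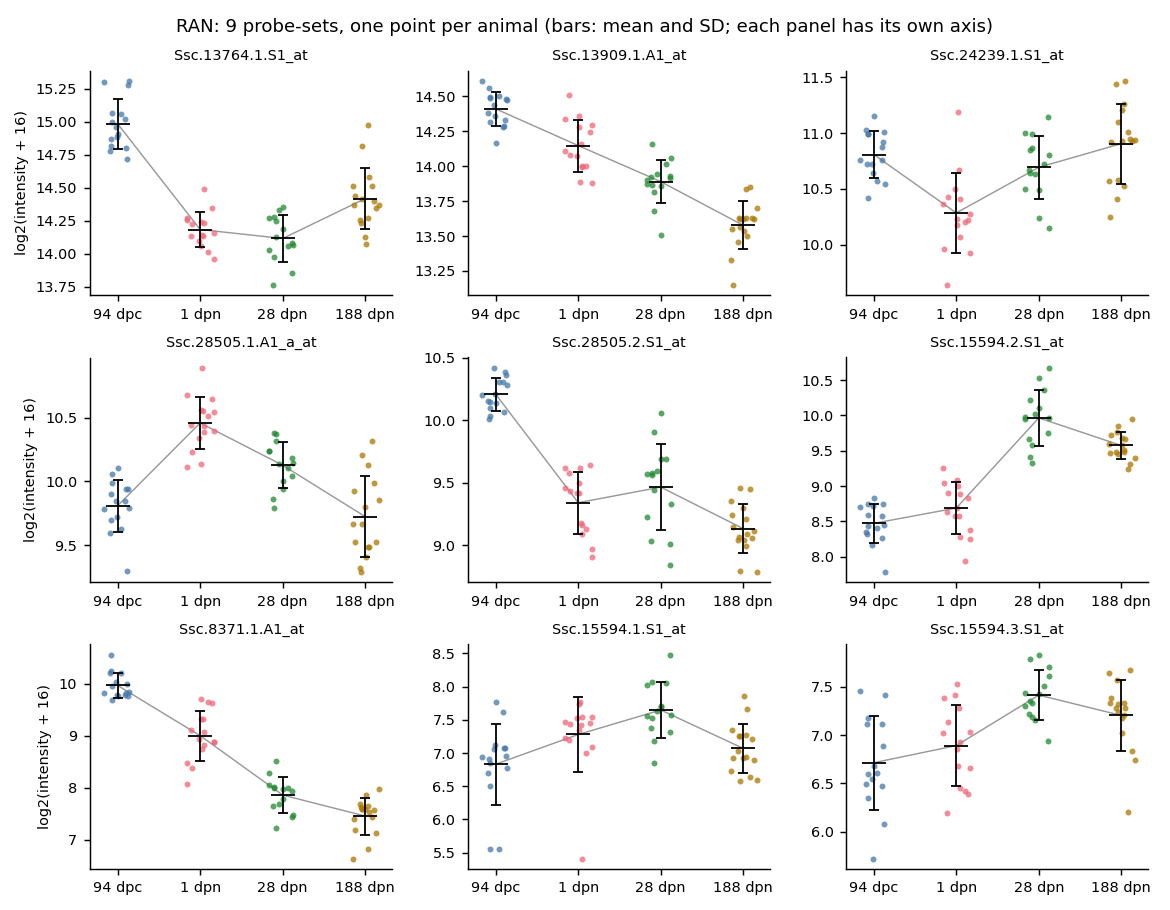
Levels of the 9 RAN probe-sets (y axes, log2(intensity + 16), a separate axis in each panel) at the 4 stages (x axis), with 1 point per animal and bars for mean and SD. Ssc.13764.1.S1_at drops from 14.72 to 15.31 in fetuses to 13.96 to 14.49 in newborns, whereas Ssc.15594.2.S1_at climbs from 7.94 to 9.25 at 1 dpn to 9.32 to 10.68 at 28 dpn.

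Several proteins act on RAN or with it. RANBP1, which helps RAN to hydrolyse GTP outside the nucleus, ranged from 8.90 to 9.99 in the fetuses, 8.96 to 10.44 in the newborns, 8.56 to 9.33 at 28 dpn and 8.22 to 9.01 at 188 dpn. It changed by 0.15 ± 0.12 in period I (adjusted p = 0.28), fell by 0.61 (SE 0.12) in period II (adjusted p = 3.9e-05) and fell by 0.24 (SE 0.09) in period III (adjusted p = 0.030), the latter not called under 5 of the alternatives. RANGAP1, the activator of RAN's GTPase, was not called in any period and rose by 0.33 (SE 0.08) over the span (1.26-fold, adjusted p = 0.00049). RANBP3, a cofactor of export by XPO1, had 4 tested probe-sets, of which 3 fell over the span (by 0.73, 1.17 and 1.37) while Ssc.7167.1.A1_at changed by -0.02 ± 0.13. The fall of 0.73, that of its brightest probe-set, was not called after quantile normalization (-0.23, adjusted p = 0.23) or centring (-0.18, adjusted p = 0.35). RANBP10, a scaffold protein that binds microtubules and is named for its binding to RAN, fell by 0.83 (SE 0.13) in period I and rose by 0.43 (SE 0.11) in period II.

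Importin alpha proteins are the adaptors that recognise the classical import signal. KPNA2 had its highest mean in the newborns. Its level was 9.78 to 11.13 at 94 dpc (median 10.63), 10.17 to 12.22 at 1 dpn (11.45), 9.35 to 11.00 at 28 dpn (10.06) and then 8.09 to 9.32 at 188 dpn (8.67). It rose by 0.77 ± 0.16 in period I (1.71-fold, adjusted p = 8.3e-05), fell by 1.30 (SE 0.19) in period II (2.47-fold, adjusted p = 3.8e-07) and fell by 1.38 (SE 0.17) in period III (2.6-fold, adjusted p = 1.1e-07). All pigs of 188 dpn lay below all pigs of 28 dpn, the single case among the members in period III. The other KPNA2 probe-set, Ssc.15824.1.S1_at, moved the same way with 0.59 ± 0.18, -1.86 ± 0.22 and -0.82 ± 0.17.

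KPNA3 was not called in period I (-0.10 ± 0.13, adjusted p = 0.50) and fell by 1.38 (SE 0.18) in period II, from 7.25 to 9.05 in the newborns to 5.86 to 7.50 at 28 dpn. That fall was not called with the actin ratio as a covariate (-0.54, adjusted p = 0.39). A weaker probe-set of KPNA3, Ssc.15865.1.S1_at, rose by 0.65 (SE 0.17) in period I and fell by 1.53 (SE 0.16) in period II. It passed the filter only through the newborns, 73.3% of which lay above the array median, against 0% at 94 dpc and 28 dpn. A peak at 1 dpn is what the filter selects there, so these changes are no separate support. KPNA1 was read in opposite directions in period II: the probe-set of highest mean, Ssc.5730.2.A1_at, rose by 0.32 ± 0.08 (adjusted p = 0.0012), and Ssc.15867.1.S1_at fell by 1.09 (SE 0.11, adjusted p = 1.8e-10) without overlap between newborns and weaned pigs. Over the span the former changed by 0.18 ± 0.09 (adjusted p = 0.058) and the latter fell by 0.84 (SE 0.10).

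Of the importin beta type carriers, KPNB1 and IPO5 fell at each step. KPNB1, which takes the adaptor and its cargo through the pore, ranged from 10.84 to 12.10 at 94 dpc (median 11.66), 10.33 to 11.36 at 1 dpn (10.62), 9.98 to 10.65 at 28 dpn (10.39) and then 9.44 to 10.12 at 188 dpn (9.78). Neighbouring stages overlapped, but no pig of 188 dpn reached the lowest fetus. The falls were 0.90 (SE 0.11), 0.39 (SE 0.10) and 0.56 (SE 0.08), and the fall over the span was 1.84 (SE 0.09), or 3.59-fold (adjusted p = 4.5e-19). IPO5, an importer of ribosomal proteins and histones, fell by 0.93 (SE 0.12), 0.38 (SE 0.11) and 0.46 (SE 0.14), and by 1.77 over the span (3.41-fold), with 8.38 to 9.86 in the fetuses and 6.24 to 8.20 at 188 dpn. The falls of KPNB1 and IPO5 in period II were not called with centred arrays (-0.07, adjusted p = 0.53, and -0.06, adjusted p = 0.60).

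TNPO3, the importer of serine- and arginine-rich splicing factors, rose before it fell. It lay between 8.29 and 9.14 at 94 dpc (median 8.64), 8.85 and 10.53 at 1 dpn (9.76), 8.03 and 8.80 at 28 dpn (8.47) and 7.05 and 8.50 at 188 dpn (7.76). Its rise of 1.03 ± 0.14 in period I (2.05-fold, adjusted p = 1.3e-07) was the largest of any member gene in that period, and its fall of 1.24 (SE 0.14) in period II left no overlap. A fall of 0.69 (SE 0.11) followed in period III. TNPO2, an importer of RNA-binding proteins, rose by 0.31 (SE 0.11) in period II (adjusted p = 0.011), and its change of 0.26 ± 0.12 over the span missed the threshold (adjusted p = 0.0502). RANBP6, a relative of IPO5, fell by 0.86 (SE 0.20) in period II, and IPO11, which imports ubiquitin-conjugating enzymes, fell by 0.27 (SE 0.11) in period II and 0.41 (SE 0.13) in period III. The fall of IPO11 in period II was not called under 6 of the alternatives, among them quantile normalization (-0.05, adjusted p = 0.65), and centring turned it to 0.05 (adjusted p = 0.70).

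**Figure D3:**
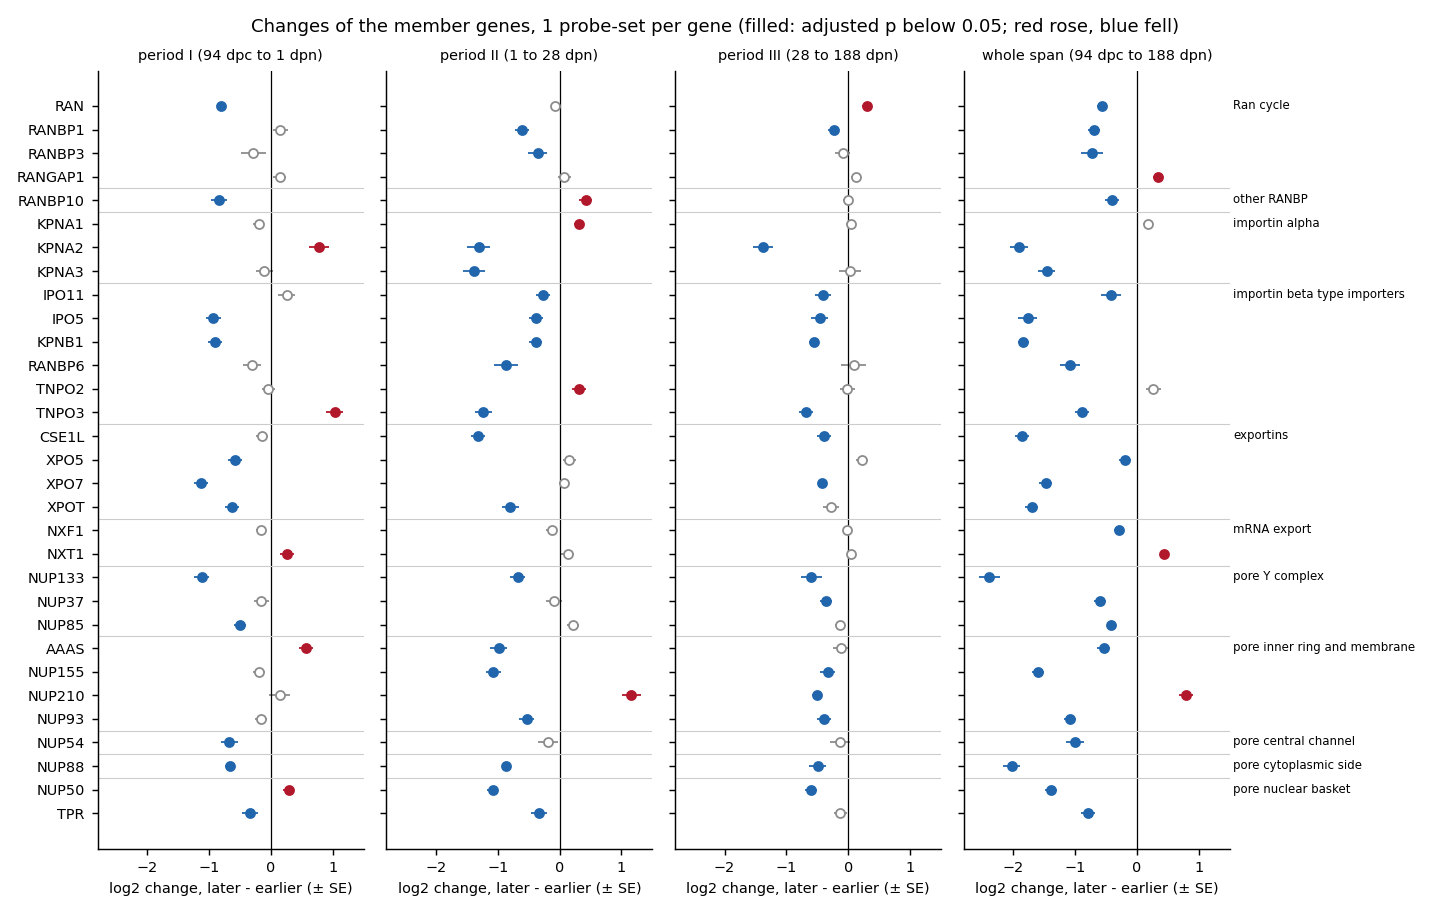
Change of each of the 31 tested member genes by its probe-set of highest mean (x axes, log2 change later minus earlier with SE), in the 3 periods and over the whole span, grouped by role. Filled points were called, red for rises and blue for falls: 5 and 12 genes in period I, 4 and 18 in period II, 1 and 15 in period III and 3 and 26 over the span, where the falls of AAAS, IPO11, NUP85, NXF1, RANBP10 and XPO5 turn to positive values with centred arrays. In a fit with 1 probe-set per gene, 29.8%, 32.2%, 18.2% and 34.7% of all genes rose and 35.6%, 35.7%, 29.1% and 47.7% fell, near the members' share of falls in period I.

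Over the span all 4 tested exportins fell by their brightest probe-sets, against 47.7% of all genes. The fall of XPO5 was, however, not called under 4 alternatives and turned with centring, as given below. CSE1L, which returns importin alpha to the cytoplasm, had medians of 10.88 at 94 dpc and 10.63 at 1 dpn, with a change of -0.14 ± 0.10 (adjusted p = 0.21). From 10.19 to 11.41 in the newborns it then dropped to 9.01 to 9.71 at 28 dpn, with no overlap. That fall was 1.32 (SE 0.11), or 2.49-fold (adjusted p = 9.0e-12). A further fall of 0.40 (SE 0.12) in period III led to 8.35 to 9.62, and the span amounted to a 3.63-fold fall.

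XPO7, an exportin of broad cargo that is known for its part in the maturation of red blood cells, fell between fetus and newborn. The fetuses ranged from 10.78 to 12.28 (median 11.28) and the newborns from 9.69 to 10.50 (10.17), so that the stages did not overlap. The fall was 1.13 (SE 0.12), or 2.19-fold (adjusted p = 8.9e-10), and the erythroid markers given above fell in the same period. Period II brought a change of 0.07 ± 0.08 (adjusted p = 0.45) and period III a fall of 0.42 (SE 0.07). The other probe-set of XPO7 fell by 0.68, 0.30 and 0.31 in the 3 periods.

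XPOT, the exporter of transfer RNA, fell by 0.63 (SE 0.11) in period I and 0.80 (SE 0.14) in period II, and by 1.71 (SE 0.11) over the span (3.26-fold), from 11.05 to 11.84 in the fetuses to 9.13 to 10.38 at 188 dpn without overlap. Its weaker probe-set fell by 0.64 (SE 0.13) over the span. XPO5, the exporter of microRNA precursors, fell by 0.58 (SE 0.11) in period I (adjusted p = 2.0e-05). Its small net fall of 0.20 (SE 0.09, adjusted p = 0.0497) became a rise of 0.35 with centred arrays (adjusted p = 0.0022).

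**Figure D4:**
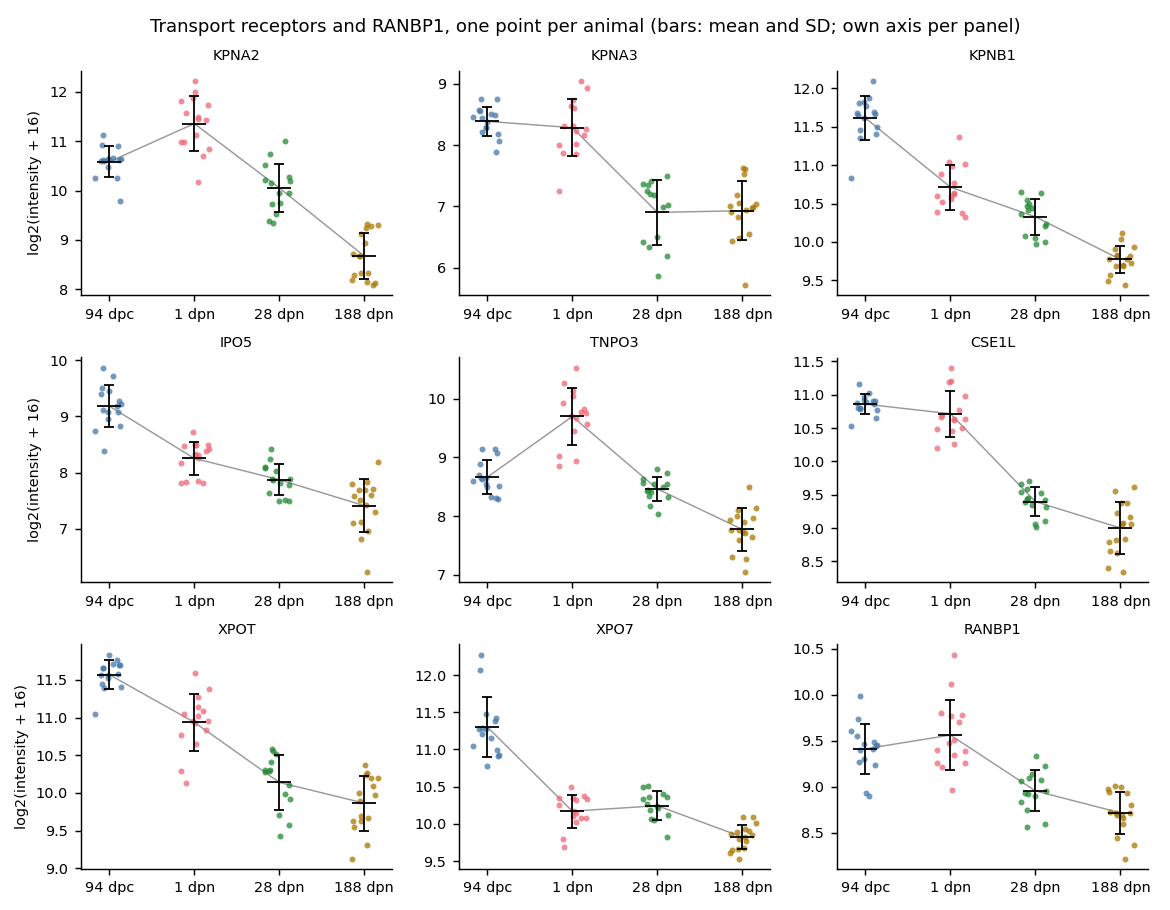
Levels of 8 transport receptors and RANBP1 (y axes, log2(intensity + 16), a separate axis in each panel) at the 4 stages (x axis), with 1 point per animal and bars for mean and SD. KPNA2 and TNPO3 have their highest medians, 11.45 and 9.76, at 1 dpn, whereas KPNB1 goes down from 11.66 to 9.78 in steps.

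The receptor for bulk mRNA export is the pair of NXF1 and NXT1. NXT1 rose by 0.27 ± 0.11 in period I (adjusted p = 0.037) and by 0.44 ± 0.07 over the span (1.36-fold, adjusted p = 8.2e-07), from 9.12 to 9.78 in the fetuses to 9.56 to 10.14 at 188 dpn. The brighter NXF1 probe-set was not called in any period and fell by 0.30 (SE 0.07) over the span, which turned to a rise of 0.25 with centred arrays (adjusted p = 0.0014). Its second probe-set, Ssc.5256.2.S1_at, fell by 1.73 (SE 0.21) in period II (adjusted p = 1.6e-08) with no overlap, although this came to 0.09 with the actin ratio as a covariate.

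In the Y complex of the pore scaffold, NUP133 showed the largest fall over the span among the member genes by their brightest probe-sets. It lay between 9.44 and 10.42 at 94 dpc (median 10.03), 7.93 and 9.43 at 1 dpn (8.97), 7.67 and 8.59 at 28 dpn (8.22) and 5.77 and 8.46 at 188 dpn (7.58). All newborns lay below all fetuses. The steps were falls of 1.12 (SE 0.12), 0.68 (SE 0.12) and 0.60 (SE 0.17), and the span was a fall of 2.39 (SE 0.17), or 5.23-fold (adjusted p = 7.5e-15). Both further tested probe-sets of NUP133 fell over the span, by 2.22 and 2.14, to means of 5.74 and 5.98 near the Tag background, where such falls are lower limits.

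NUP85 and NUP37 belong to the same complex. NUP85 fell by 0.50 (SE 0.10) in period I by its brightest probe-set and by 0.42 (SE 0.07) over the span, whereas its other probe-sets fell by 1.07 (SE 0.11) and 2.10 (SE 0.11) over the span. NUP37 fell by 0.35 (SE 0.10) in period III (adjusted p = 0.0036) and by 0.60 (SE 0.09) over the span, the latter not called after quantile normalization (-0.09, adjusted p = 0.38) or centring (-0.05, adjusted p = 0.63).

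NUP88, which anchors filaments on the cytoplasmic side, fell in every period. The ranges were 9.75 to 10.35, 8.99 to 9.64, 8.31 to 8.79 and 6.80 to 8.67 at the 4 stages, with medians of 10.15, 9.41, 8.54 and 8.00. Neighbouring stages did not overlap in periods I and II, and did in period III. Its falls of 0.67 (SE 0.07), 0.86 (SE 0.07) and 0.50 (SE 0.14) added up to 2.02 (SE 0.14), or 4.07-fold (adjusted p = 2.7e-15). NUP54, a protein of the central channel, fell by 0.67 (SE 0.14) in period I and by 1.00 (SE 0.15) over the span.

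The inner ring members NUP155 and NUP93 were not called in period I (-0.19 ± 0.10, adjusted p = 0.084, and -0.16 ± 0.10, adjusted p = 0.18). NUP155 then fell by 1.07 (SE 0.12) in period II, from 9.08 to 10.06 in the newborns to 7.83 to 8.87 at 28 dpn without overlap, and by 0.33 (SE 0.12) in period III. NUP93 fell by 0.53 (SE 0.12) and 0.39 (SE 0.12) in these periods. The fall of NUP155 in period III was not called under 4 of the alternatives (-0.23 after quantile normalization, adjusted p = 0.071), nor was that of NUP93 in period II after centring (-0.21, adjusted p = 0.14) or in period III after quantile normalization (-0.28, adjusted p = 0.052). AAAS, the pore protein aladin, rose by 0.57 ± 0.11 in period I (adjusted p = 5.0e-05) and fell by 0.99 (SE 0.13) in period II (adjusted p = 1.3e-07).

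NUP210, a membrane glycoprotein that spans the nuclear envelope at the pore, went the other way. It ranged from 7.28 to 8.93 at 94 dpc (median 8.31), 7.36 to 9.21 at 1 dpn (8.40), 9.30 to 9.98 at 28 dpn (9.59) and then 8.66 to 9.35 at 188 dpn (9.11). The lowest pig of 28 dpn exceeded the highest newborn. The rise in period II was 1.16 ± 0.15, or 2.23-fold (adjusted p = 8.6e-08), and was 0.92 with an adjusted p of 0.092 once the actin ratio was a covariate. It fell by 0.51 (SE 0.08) in period III and remained 0.79 ± 0.12 above the fetal mean at 188 dpn, which with the covariate came to 0.44 (adjusted p = 0.18). In period II the sum of 5 macrophage genes went from 14340 to 24670 up to 28080 to 49240 and that of 5 endothelial genes from 3004 to 5149 up to 5556 to 8342, while within these lists CD163, KDR and LYVE1 fell, with changes of -0.48 ± 0.15, -1.04 ± 0.17 and -0.52 ± 0.11, so that 2 macrophage genes rose and 1 fell and 3 endothelial genes rose and 2 fell. The part of these cells in the rise of NUP210 was not tested.

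In the nuclear basket, NUP50, which also assists the recycling of importin alpha, rose by 0.29 ± 0.08 in period I (adjusted p = 0.0034), from 9.47 to 10.17 to a range of 9.85 to 10.62. It then fell to 8.68 to 9.33 at 28 dpn, by 1.08 (SE 0.09) without overlap (adjusted p = 3.8e-12), and by 0.60 (SE 0.10) in period III. TPR, which forms the filaments of the basket, fell by 0.34 (SE 0.13) in period I (adjusted p = 0.026) and 0.33 (SE 0.13) in period II (adjusted p = 0.027). Neither of these small falls of TPR was called after quantile normalization or centring.

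**Figure D5:**
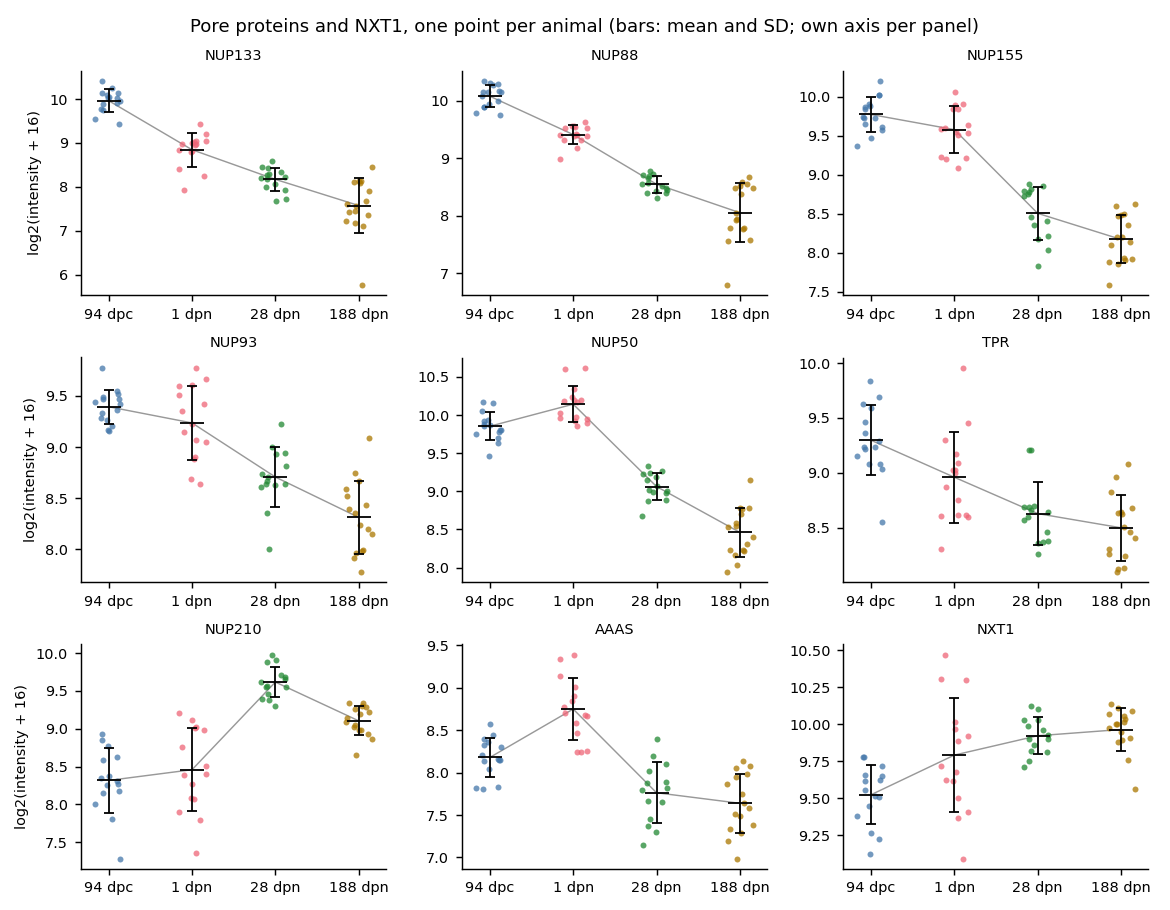
Levels of 8 pore proteins and of NXT1 (y axes, log2(intensity + 16), a separate axis in each panel) at the 4 stages (x axis), with 1 point per animal and bars for mean and SD. NUP133 and NUP88 step down from medians of 10.03 and 10.15 to 7.58 and 8.00, NUP50 drops after 1 dpn, and NUP210 steps up from a median of 8.40 to 9.59 between 1 and 28 dpn.

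Counted by gene with its brightest probe-set, 4 fell in all 3 periods (IPO5, KPNB1, NUP133 and NUP88) and 8 fell in a pair of periods without a rise (CSE1L, IPO11, NUP155, NUP93, RANBP1, TPR, XPO7 and XPOT). The share of all genes with such courses was not counted, so these counts only describe the members. The period II falls of IPO5 and KPNB1 were not called with centred arrays, and those of IPO5, KPNB1 and NUP133 not with the actin covariate. A further 7 fell in 1 period only, and 7 rose in a period and fell in another (AAAS, KPNA2, NUP210, NUP50, RAN, RANBP10 and TNPO3). KPNA1, NXT1 and TNPO2 rose once and did not fall by this probe-set, while another probe-set of KPNA1 fell as given above. KPNA2, AAAS, NUP50 and TNPO3 rose in period I and fell in period II. In a fit with 1 probe-set per gene and adjustment over genes, 12 of 31 member genes fell in period I (38.7%, against 35.6% of all genes), 18 in period II (58.1%, against 35.7%), 15 in period III (48.4%, against 29.1%) and 26 over the span (83.9%, against 47.7%), so that the share in period I lay near the background. The rises in that fit were 5, 4, 2 and 4 member genes, or 16.1%, 12.9%, 6.45% and 12.9%, against 29.8%, 32.2%, 18.2% and 34.7% of all genes. Where a gene had several tested probe-sets, all of them were called one way for 7 of 10 genes over the span, with opposite calls for RAN alone, but for 3 of 11 genes in period II.

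The genes that the study lists under RAN signaling, which it chose on these animals or their high protein counterparts and which are therefore no independent evidence, include 6 with tested probe-sets here. Of these IPO5, KPNB1, KPNA3 and CSE1L fell over the span, with changes of -1.77, -1.84, -1.46 and -1.86, KPNA1 was not called by its brightest probe-set, and the probe-sets of RAN split as described. The study listed them for the diets compared within a stage or for neighbouring stages within a diet, not for the span. For AP animals between 28 and 188 dpn it lists CSE1L, RAN and XPO1 as down-regulated. That list left out genes regulated alike in the high protein animals, and came from GCRMA values, a detection filter and a mixed model. The calls here use AP animals alone and the deposited intensities, so the 2 are not the same kind of list. Between 28 and 188 dpn here CSE1L fell, XPO1 was not tested in the main fit, and the brightest RAN probe-set rose by 0.30 while several others of RAN fell.

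Other genes of the pathway were counted from a separate list of helpers of transport and mRNA export, of which 17 were on the array and tested. Each was read by 1 probe-set, with adjustment over all probe-sets tested. In periods I, II and III 3, 4 and 2 rose and 3, 7 and 9 fell, and over the span 2 rose and 10 fell with a median change of -0.54. Among all genes in the fit with 1 probe-set per gene, 29.8%, 32.2% and 18.2% rose and 35.6%, 35.7% and 29.1% fell in these periods. Over the span 34.7% of all genes rose and 47.7% fell in that fit. DDX39B, a helicase that loads export factors onto mRNA, fell by 2.87 (SE 0.09) in period II, and DDX19A, which releases mRNA on the cytoplasmic side, fell by 0.99 (SE 0.08). PCID2, an mRNA export factor, rose by 1.11 (SE 0.09) over the span. Of 6 tested genes of the nuclear envelope and lamina 3 rose and 2 fell over the span, against 34.7% and 47.7% of all genes. TMPO, a lamina-associated protein, fell by 2.76 (SE 0.22), LMNB1, the B-type lamin, fell by 1.72 (SE 0.13), and LMNA, the A-type lamin, changed by 0.04 ± 0.08 (adjusted p = 0.66).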

How the data were processed

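Liver mRNA of 60 pigs was measured on Affymetrix Porcine arrays, with 1 array per animal. The authors deposited 1 linear intensity per probe-set and array, made with GCOS 1.1.1 according to the submitters' processing notes. The trimmed mean (2% at each end) lay between 500.1 and 500.2 on every array, so the arrays had been scaled to a common target, and 0 arrays were identical to another. For arrays it is their number, 14 to 16 per stage, that limits the precision.

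The 124 control probe-sets were set aside. Each intensity was raised by 16 and taken to log2, which weakens changes near background. Pairs of stages were compared with limma 3.58.1 in R 4.3.3, two-sided, over all probe-sets that passed the filter, and any difference among 4 stages with its moderated F statistic. The study's mixed model used litter, sex and weight, which the labels do not give, so animals were treated as independent although siblings were chosen within a stage, and p-values may be too small. The models were tested on simulated data before use. Differences and correlations between RAN probe-sets used permutation tests in Python 3.11.15 with NumPy 2.4.6.

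Symbols came from the platform annotation (10069 probe-sets with 1 gene, 198 with several, 13732 with none). The gene IDs of all 70 members were found in the RefSeq table of Sscrofa11.1, used for names only. Named genes were the RAN probe-sets, the study's RAN signaling genes, and per comparison the 5 largest rises and falls among called genes, with all others given within role groups. The members and all lists were chosen with earlier results of these data known. Gene and promoter sequences were not used here. Alternatives were quantile normalization, median centring, pseudocounts of 1 and 64, no filter, 1 probe-set per gene, a single fit to 4 stages, leaving out the least correlated array of each stage, and the actin 3′/5′ ratio as covariate.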

Additional observations from a re-analysis of the deposited data

How the results depend on the processing

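No paired analysis was possible because the labels carry neither litter nor any number that ties animals of different stages. The counts of members called (rises and falls of 8 and 24, 7 and 31, 1 and 23, and 5 and 41 in periods I, II, III and over the span) stayed within 1.5 times under pseudocounts of 1 and 64, no filter, a single fit to 4 stages and without the least correlated array of each stage. Centring each array on its median moved the rises to 14, 17, 2 and 13, and quantile normalization moved them to 11 in period II and 9 over the span. With 1 probe-set per gene, where fewer features are counted, 5 rises and 12 falls remained in period I, 4 and 18 in period II, 2 and 15 in period III, and 26 falls over the span, where 29.8% and 35.6%, 32.2% and 35.7%, 18.2% and 29.1%, and 34.7% and 47.7% of all genes rose and fell. The actin ratio as covariate left 2 rises and 13 falls in period II and 2 rises over the span, and the ratio itself differs between the stages. Single calls lost but not turned numbered 43 with that covariate, 20 with quantile normalization, 19 with centring, 7 without a filter, 5 with the single fit, 3 without the least correlated arrays, 1 with a pseudocount of 64 and 0 with a pseudocount of 1. Centring reversed, in period II, RAN Ssc.13909.1.A1_at to 0.056, XPO7 Ssc.2144.1.S1_at to 0.012 and IPO11 to 0.047, and over the span XPO5 to 0.35, AAAS to 0.0060, RANBP10 to 0.14, NXF1 to 0.25, IPO11 to 0.13 and NUP85 to 0.13. Quantile normalization reversed IPO11 over the span to 0.085, and the actin covariate reversed NXF1 Ssc.5256.2.S1_at in period II to 0.093. Apart from what the scalings do by construction, the cause was not tested. The F test called 49 to 53 members and the RAN pairs that differed numbered 68 to 73 under the alternatives run for them. XPO1, KPNA5 and KPNA7 did not pass the filter on low signals, so that no change could be called for them in the main fit. They entered only the counts without a filter, and their changes there are not given.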

Other observations

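KPNA2 varied among newborns along with the dividing-cell markers. In a set of 124 correlations chosen after the values had been seen, the level of each of the 31 member genes was set against the log2 summed intensity of the 16 dividing-cell genes within each stage, both read on the same array, over animals that include siblings. At 94 dpc and 1 dpn these were, per the methods, the lightest and heaviest of a litter, and weight was not accounted for. For KPNA2, Pearson's r was 0.932 at 1 dpn (permutation p = 2e-05, adjusted p = 0.0025, n = 15 animals) with Spearman's rho of 0.925 (permutation p = 2e-05, adjusted p = 0.0025), and r was 0.886 without the 2 animals farthest from the median. At 28 dpn r was 0.801 (permutation p = 0.00066, adjusted p = 0.032, n = 14) and rho 0.767 (permutation p = 0.0020, adjusted p = 0.085). At 94 dpc r was 0.562 (permutation p = 0.028, adjusted p = 0.25, n = 15), and at 188 dpn, when the markers were low in all animals, it was -0.146 (permutation p = 0.59, adjusted p = 0.81, n = 16).

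For 2 other genes the relation also passed adjustment at a single stage. XPO7 had r = 0.768 at 94 dpc (permutation p = 0.00077, adjusted p = 0.032, n = 15), with rho = 0.689 (permutation p = 0.0060, adjusted p = 0.12). NUP85 had r = 0.733 at 1 dpn (permutation p = 0.0014, adjusted p = 0.042, n = 15), with rho = 0.786 (permutation p = 0.00081, adjusted p = 0.050). The median r over the 31 genes was 0.32, 0.14, -0.03 and 0.04 at the 4 stages, and no negative correlation passed. Differences in r between stages or genes were not tested.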
